A study of Mus musculus with 23 samples.

Results

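The interferon regulatory factors (IRFs) are a family of transcription factors (TFs) that bind DNA through a conserved domain with repeated tryptophans. The genes described here are Irf1, Irf2, Irf3, Irf4, Irf5, Irf7, Irf8 and Irf9, chosen by gene symbol. They are 8 of the 20145 genes that could be named on the array. Where a gene had several probes, the brightest one on average was taken. Of the 8 genes, 7 reached a log2 intensity of 6.5 on at least 1 array and entered the tests, and Irf4 did not.

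IRF proteins recognise the interferon-stimulated response element and related sites. IRF3, IRF5 and IRF7 are activated downstream of sensors of foreign nucleic acid and of Toll-like receptors, and IRF9 is the DNA-binding subunit of ISGF3, the complex that answers type I interferon. IRF1 activates and IRF2 can repress an overlapping set of sites. IRF8, and IRF4 in lymphoid cells, bind weakly alone and are recruited to composite sites by partners such as PU.1 (encoded by Spi1). In myelopoiesis IRF8 is known as a regulator of the monocyte and dendritic cell lineages.

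The cells were made from 1 mouse embryonic stem cell line in blast culture, and the strain is labelled C57BL/6. RUNX1 is wild type in this line, which also carries an HA-tagged human RUNX1-ETO, the fusion protein of t(8;21) leukaemia, driven by a TET-responsive promoter, so that uninduced cells hold the transgene too. Haemogenic endothelium (HE, KIT+Tie2+CD41-), HE2 (KIT+Tie2+CD41+) and progenitors (KIT+Tie2-CD41+) were sorted on day 2, either uninduced or after doxycycline (Dox, 0.1 μg/ml) had been given on day 1. Myeloid progenitors were grown from progenitors of the blast culture in an expansion medium with cytokines, uninduced or with 12 h of Dox. Each group had 3 arrays, apart from 2 for uninduced and 2 for induced progenitors. No array of Dox-treated cells without the transgene was used here, so that effects of Dox and of RUNX1-ETO cannot be told apart. All arrays came from the same line, and fewer cells of a type and less RNA per cell cannot be told apart in such samples.

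The arrays lay on 3 slides. All myeloid progenitor arrays were on the third slide, which was scanned on another day than the first 2 and also held induced progenitor array 2 and an additional uninduced progenitor array. The labels of that additional array call it both technical replicate 3 and replicate 3, and it was normalized but not fitted. Between 48.8 and 78.4% of the spots of an array were well above background. The 7 markers of HE and the 6 of HE2 and CD41+ progenitors were above background on every array of every group. The probe for Runx1t1, the mouse gene of ETO, was higher with Dox at each stage, by 1.24 (HE), 2.08 (HE2), 3.96 (progenitors) and 2.06 (myeloid progenitors) on the log2 scale, and all but the value in HE passed the threshold below. Whether this probe reads the human transgene was not tested. Myeloid progenitors also carried erythroid RNA, with a mean log2 intensity of 5 erythroid markers of 14.16 to 14.56 on uninduced arrays compared with 10.27 to 10.48 in uninduced progenitors.

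The sequences before the start of Irf1, Irf2, Irf8 and Irf5 are shown because these are the members that passed the threshold with Dox. Each run holds the 250 bases upstream of a RefSeq transcript start on GRCm38.p6, 5′ to 3′, and capitals mark the motifs searched for. They stand for chr11:53769764-53770013 (Irf1), chr8:46739495-46739744 (Irf2), chr8:120736108-120736357 (Irf8) and chr6:29526375-29526624 (Irf5), all on the plus strand and upstream of the annotated transcript.
Irf1: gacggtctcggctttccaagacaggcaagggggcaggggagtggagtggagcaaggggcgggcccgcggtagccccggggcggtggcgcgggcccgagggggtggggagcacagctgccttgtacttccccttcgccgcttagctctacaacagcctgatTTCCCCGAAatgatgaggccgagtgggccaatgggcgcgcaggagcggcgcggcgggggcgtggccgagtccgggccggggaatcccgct
Irf2: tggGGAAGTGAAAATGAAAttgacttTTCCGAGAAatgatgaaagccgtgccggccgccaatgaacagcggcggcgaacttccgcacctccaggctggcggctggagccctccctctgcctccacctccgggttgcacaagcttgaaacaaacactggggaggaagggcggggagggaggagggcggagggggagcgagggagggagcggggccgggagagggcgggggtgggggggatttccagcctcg
Irf8: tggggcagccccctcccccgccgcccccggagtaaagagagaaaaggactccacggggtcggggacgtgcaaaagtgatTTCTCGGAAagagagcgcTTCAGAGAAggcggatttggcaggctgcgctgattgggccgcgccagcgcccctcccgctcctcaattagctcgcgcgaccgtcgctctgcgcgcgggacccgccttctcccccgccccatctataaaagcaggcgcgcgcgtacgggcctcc
Irf5: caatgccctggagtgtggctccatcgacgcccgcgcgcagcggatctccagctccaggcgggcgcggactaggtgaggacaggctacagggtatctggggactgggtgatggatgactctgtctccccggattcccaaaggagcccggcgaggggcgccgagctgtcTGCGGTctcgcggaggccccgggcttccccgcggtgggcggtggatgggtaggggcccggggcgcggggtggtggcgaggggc

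The motifs were searched on both strands of windows that reached from 250 bases before to 50 bases after a start. They were an interferon-stimulated response element core (GAAA, any 2 bases, GAAA), an ETS-IRF composite (GGAA, any 2 bases, GAAA), a STAT site called GAS (TTC, any 3 or 4 bases, GAA) and the RUNX hexamers TGTGGT and TGCGGT. The Irf1 window held 1 GAS at position -90, and the Irf8 window held a pair at -171 and -153, with 3 bases between the arms. The Irf2 window held an ETS-IRF composite at -247 that overlapped an interferon-stimulated response element core at -241, and a GAS at -224. The Irf5 window held the RUNX hexamer TGCGGT at -83. Among the other members, Irf3 had TGCGGT at -37, a window at another Irf8 start had it on the minus strand at -197, Irf9 had a GAS with 4 bases between the arms just after its start, and the Irf4 and Irf7 windows held none. Of all 32851 windows of the table, 3.44% held the response element core, 2.72% the composite, 8.3% a GAS with 3 bases between the arms, 6.95% one with 4, 16.8% TGTGGT and 6.45% TGCGGT. A match is a description of letters and not a bound site.

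A gene was called changed at an unadjusted P of at most 0.001 with a change of at least 2-fold in the limma fit over all 22 arrays, and adjusted P values are given over 15202 expressed genes. Values are log2 intensities after normalization, listed in the order of the replicates, and only differences of 1 probe between groups are compared. With Dox, Irf8 rose and Irf1 fell in HE, Irf2 rose in HE2, and Irf1 and Irf5 fell in progenitors. In myeloid progenitors none of the 7 tested members was called, although 4 of them had an unadjusted P under 0.05 besides Irf1 at 0.000761. These counts stand beside the share of all tested genes. With Dox 4.70% of genes were called higher and 2.39% lower in HE, 5.17 and 2.05% in HE2, 3.03 and 0.704% in progenitors, and 5.13 and 1.18% in myeloid progenitors.

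More members had groups of arrays that did not overlap, and such groups were frequent over all genes. In HE 3 members lay higher and 1 lower with Dox without overlap (14.1 and 10.9% of all tested genes), and in HE2 3 and 4 (16.9 and 15.2%). In progenitors, with fewer arrays, 0 lay higher and 5 lower (22.6 and 26.3%), and in myeloid progenitors 2 and 3 (23.8 and 22.5%).

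**Figure D1:**
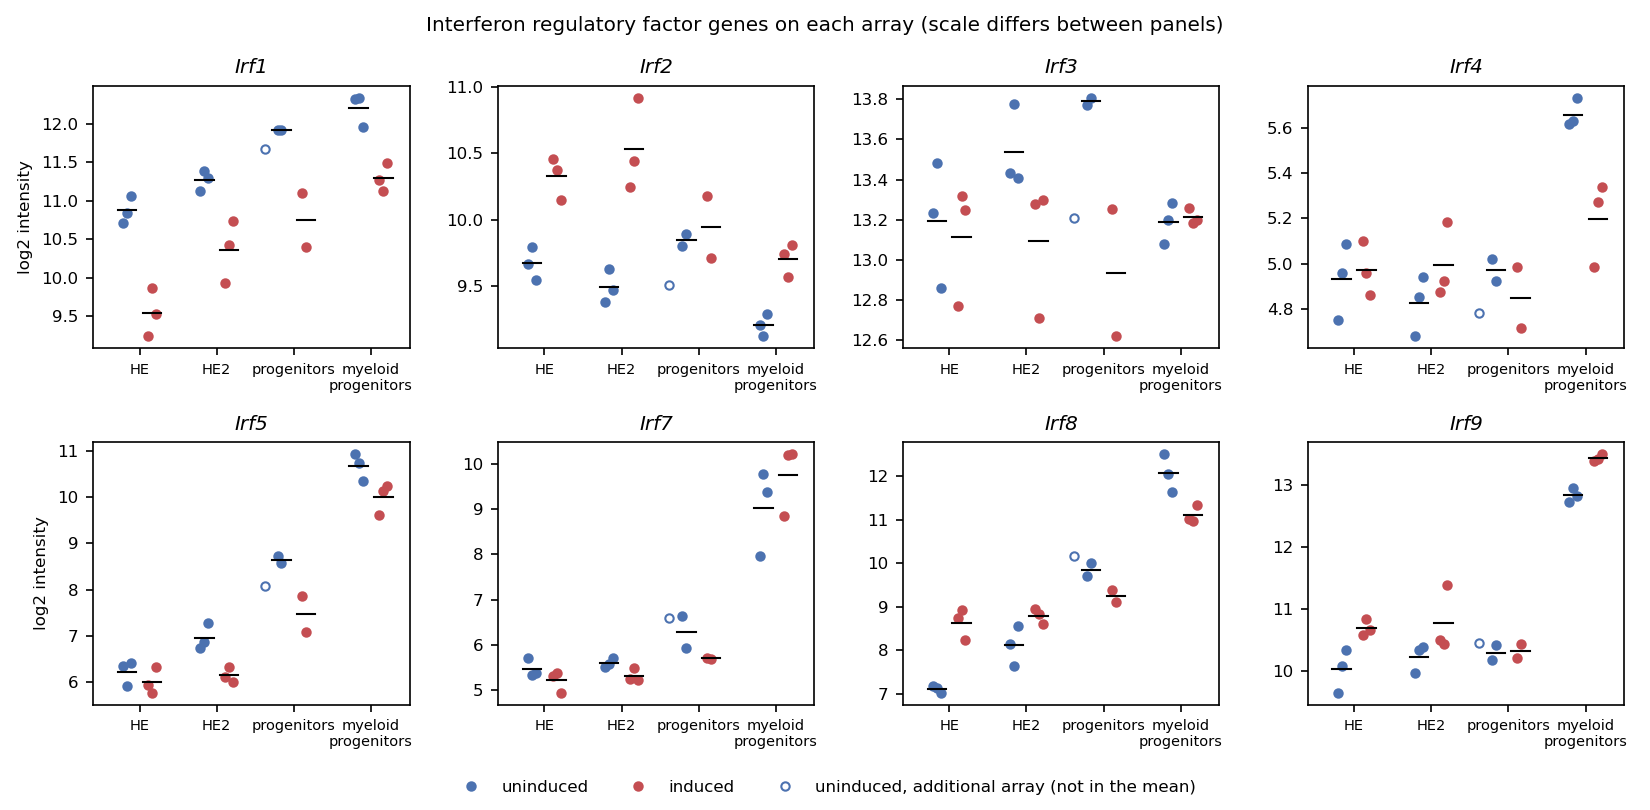
Log2 intensity (vertical axis, its range differing between panels) of the 8 interferon regulatory factor genes on each array, by stage (horizontal axis), with uninduced arrays in blue, induced arrays in red and group means as lines. The open circle is the additional uninduced progenitor array, which is not in the mean. Irf5, Irf7, Irf8 and Irf9 are highest in myeloid progenitors, and Irf8 is higher with Dox in HE and lower with Dox in myeloid progenitors.

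The response of Irf8 to Dox changed direction between stages. Uninduced HE arrays had log2 intensities of 7.18, 7.13 and 7.02, and induced HE arrays had 8.73, 8.93 and 8.22. All induced values lay above all uninduced ones, by 2.86-fold in the mean (log2 change 1.52, SE 0.25, adjusted P = 0.00028). In HE2 the values were 8.14, 7.63 and 8.56 uninduced and 8.95, 8.83 and 8.59 induced, which did not overlap either, with a change of 0.68 that missed the threshold (adjusted P = 0.0681). Within slides, the HE2 difference was 1.07 on the first slide and 0.15 on the second, whereas that in HE was 1.58 and 1.55.

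In the later stages the difference in Irf8 lay on the other side. Uninduced progenitors had 9.70 and 9.998, and induced ones 9.37 and 9.10 (log2 change -0.61, adjusted P = 0.273). In myeloid progenitors the uninduced arrays had 12.51, 12.06 and 11.63, and the induced ones 11.02, 10.97 and 11.33. These groups did not overlap, and the mean was 1.94-fold lower with Dox (log2 change -0.96, SE 0.25, adjusted P = 0.0132). The change missed both limits, at just under 2-fold and with an unadjusted P of 0.00112 in the limma fit. Without uninduced myeloid progenitor array 3 the change was -1.18 and passed the threshold. The response of Irf8 differed between myeloid progenitors and HE by -2.48 (SE 0.35, adjusted P = 0.000273), the only difference in Dox response between stages that was called among the members. Over all genes, 2.96% were called higher and 1.76% lower in this comparison. Between the other stages the shares were 0.625 and 0.710% (HE2 against HE), 0.237 and 0.408% (progenitors against HE2) and 0.835 and 0.664% (myeloid progenitors against progenitors), with no member called. Myeloid progenitors differed from the earlier stages in culture and, apart from induced progenitor array 2, in slide. Their Dox treatment differed too, with 12 h in place of Dox from day 1 of the blast culture.

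Markers of other cell types moved with Dox on the same arrays. In myeloid progenitors 5 of the 7 markers of HE rose (median 1.83), with a mean log2 intensity over the list of 9.68 to 10.18 uninduced and 11.59 to 12.03 induced. Of 3 tested dendritic markers there, Itgax fell (-1.32), while the mean over all 6 of the list was 8.28 to 8.53 uninduced and 8.32 to 8.49 induced, with 3 of the 6 above background on no array. In HE 2 of 5 mesenchymal markers fell and 1 rose (median -1.68), with a mean over the list of 10.9 to 12.01 uninduced and 10.29 to 10.82 induced, and 1 of 5 erythroid markers rose, Hbb-bt (2.37). Of 3 tested dendritic markers in HE, Clec9a rose, and 1 of 6 markers of HE2 and CD41+ progenitors fell there. In both stages 1 of 5 macrophage and 1 of 4 mast cell markers rose. Whether the shares of these cell types changed, and their part in the Irf8 values, was not tested.

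Without Dox, Irf8 rose at each step of the sequence. From HE to HE2 it was higher by 1.00 (adjusted P = 0.0127), at the 2-fold limit, and this call was lost with the replicate number as a block, the arrays of these groups being paired by their numbers. It was also lost with slide as a block and without any of 10 single arrays. From HE2 to progenitors it rose by 1.73 (SE 0.28, adjusted P = 0.000344) and from progenitors to myeloid progenitors by 2.22 (SE 0.28, adjusted P = 1.07e-05). With Dox, the same steps gave 0.16, 0.45 and 1.87, of which only the last was called (adjusted P = 0.000125). In the order of its 8 group means Irf8 ran from uninduced HE at 7.11 to uninduced myeloid progenitors at 12.07, and the arrays of neighbouring groups overlapped only among uninduced HE2, induced HE and induced HE2.

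Irf1 was lower with Dox at each of the 4 stages. In HE the uninduced arrays had 10.71, 10.85 and 11.07, and the induced ones 9.23, 9.87 and 9.52, so that Irf1 fell 2.52-fold (log2 change -1.33, SE 0.22, adjusted P = 0.000383). In HE2 it had 11.13, 11.39 and 11.30 uninduced and 9.93, 10.42 and 10.74 induced (-0.91, adjusted P = 0.00861). In neither stage did the arrays overlap. The HE2 value missed the 2-fold limit, and it passed with slide as a block or after scaling to the 75th percentile, at -1.01 in both, and without induced HE2 array 3, at -1.10.

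In progenitors Irf1 had 11.92 and 11.93 uninduced and 11.10 and 10.40 induced (-1.17, SE 0.27, adjusted P = 0.0149). The call rested on few arrays, with -0.82 on the first slide and -1.27 on the third, where the additional array stands for the uninduced cells, and -0.67 with slide as a block. In myeloid progenitors the uninduced arrays had 12.33, 12.34 and 11.96 and the induced ones 11.28, 11.13 and 11.50 (-0.91, adjusted P = 0.0098). The uninduced mean was higher at each later stage, from 10.875 in HE to 12.212 in myeloid progenitors. The steps were 0.40, 0.65 and 0.29, and none of them was called. A further Irf1 probe lay between group means of 5.08 and 5.41 and was above background on at most 2 arrays of a group, and when both probes were averaged the change in HE was -0.76.

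Irf2, which can act against IRF1 at shared sites, moved the other way. HE2 arrays had 9.37, 9.63 and 9.47 uninduced and 10.25, 10.44 and 10.92 induced, and Irf2 rose 2.06-fold (log2 change 1.04, SE 0.17, adjusted P = 0.000414). The size lay near the 2-fold limit, at 0.99 without uninduced HE2 array 1 and 0.85 without induced HE2 array 3. In HE the arrays had 9.67, 9.80 and 9.55 compared with 10.46, 10.38 and 10.15 (0.66, adjusted P = 0.014). In myeloid progenitors they had 9.20, 9.12 and 9.28 compared with 9.74, 9.56 and 9.81 (0.50, adjusted P = 0.0662). The induced arrays were all above the uninduced ones in these 3 stages. In progenitors the groups overlapped (9.80 and 9.89 uninduced, 10.18 and 9.71 induced), with a change of 0.10. No step between stages was called for Irf2, with changes from -0.64 to 0.35.

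**Figure D2:**
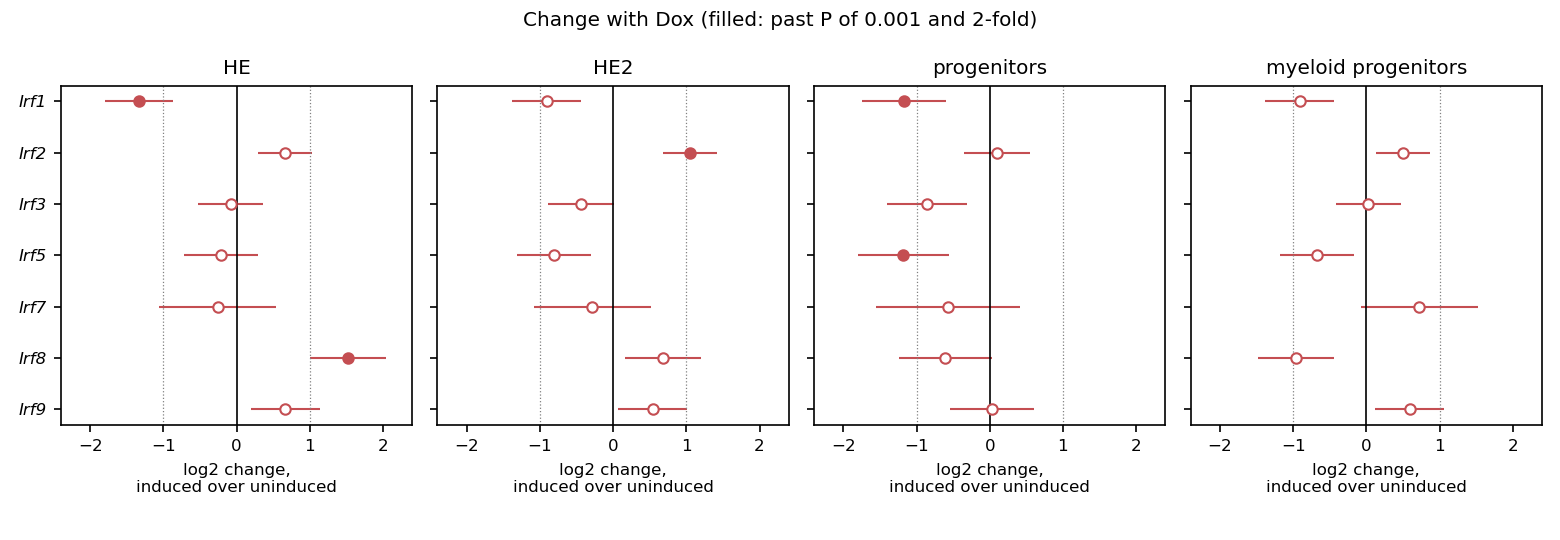
Log2 change with Dox (horizontal axis, induced over uninduced arrays) of the 7 tested members at the 4 stages, with 95% confidence intervals from the limma fit; filled circles passed an unadjusted P of 0.001 with a 2-fold change. Irf1 lies left of 0 in every stage, and Irf8 moves from 1.52 in HE to -0.96 in myeloid progenitors.

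Irf5, which acts downstream of Toll-like receptors, was higher at each later stage without Dox. Uninduced arrays had 6.35, 5.92 and 6.42 in HE, 6.73, 6.87 and 7.27 in HE2, 8.74 and 8.57 in progenitors, and 10.93, 10.74 and 10.35 in myeloid progenitors. The groups did not overlap at any step. Irf5 was higher by 0.73 in HE2 than in HE, which missed the threshold, and it rose by 1.69 to progenitors (SE 0.27, adjusted P = 0.000331) and by 2.02 to myeloid progenitors (SE 0.27, adjusted P = 2.06e-05).

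With Dox, Irf5 arrays had 5.94, 5.78 and 6.34 in HE, 6.11, 6.33 and 6.01 in HE2, 7.86 and 7.09 in progenitors, and 9.61, 10.14 and 10.25 in myeloid progenitors. Irf5 fell in progenitors by 1.18 on the log2 scale (SE 0.29, adjusted P = 0.022). This call was lost without any of 11 single arrays, 8 of them from other stages, and with slide as a block the change was -0.71. The changes in HE (-0.21), HE2 (-0.81, adjusted P = 0.0257) and myeloid progenitors (-0.68, adjusted P = 0.0725) were not called. The steps to progenitors (1.32) and to myeloid progenitors (2.53) were called with Dox as well, the former not without induced progenitor array 1 (0.94).

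Irf7, which is itself induced by interferon through ISGF3, was near background before the myeloid progenitor stage. Its uninduced arrays lay between 5.33 and 5.72 in HE and HE2 and at 6.63 and 5.92 in progenitors, and 1 or more arrays were not well above background in uninduced HE and in induced HE, HE2 and progenitors. Uninduced myeloid progenitors had 7.96, 9.77 and 9.38, and induced ones had 8.85, 10.21 and 10.22. Irf7 thus rose to myeloid progenitors by 2.76 without Dox (SE 0.42, adjusted P = 9.71e-05) and by 4.06 with Dox (SE 0.42, adjusted P = 2.89e-06). The uninduced step was not called with slide (2.72) or scan date (2.78) as a block, nor with only the groups compared (2.76). Arrays with and without Dox overlapped in myeloid progenitors (0.73, adjusted P = 0.251), where array 1 was the lowest in both groups.

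Irf9 was called at the step to myeloid progenitors and at no earlier one. Uninduced arrays had 9.64, 10.07 and 10.34 in HE, 9.96, 10.32 and 10.38 in HE2, and 10.17 and 10.41 in progenitors, compared with 12.73, 12.94 and 12.83 in myeloid progenitors. That step was 5.83-fold without Dox (log2 change 2.54, SE 0.25, adjusted P = 8.15e-07). With Dox the levels were 10.58, 10.83 and 10.65 in HE, 10.49, 10.42 and 11.38 in HE2, 10.21 and 10.43 in progenitors, and 13.38, 13.41 and 13.49 in myeloid progenitors. The step with Dox was 8.63-fold (3.11, SE 0.25, adjusted P = 1.31e-07). Dox arrays were all higher in HE (0.67, adjusted P = 0.0516), HE2 (0.54) and myeloid progenitors (0.60, adjusted P = 0.0889), and none of these changes was called.

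Irf3, a factor kept in the cytoplasm until it is phosphorylated, had the narrowest range of the tested members. Its group means lay between 12.94 in induced progenitors and 13.79 in uninduced progenitors, and no change with Dox or between stages was called. The Dox change in progenitors was -0.85 (adjusted P = 0.0664), where the additional uninduced array, at 13.21, lay between the induced arrays of 13.25 and 12.62. Irf4, the lymphoid partner of PU.1, had log2 intensities of at most 5.73 and was well above background on 1 array only, in uninduced HE, so that no fold is given.

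From progenitors to myeloid progenitors, 4 of 7 tested members rose, both without and with Dox, and they were Irf5, Irf7, Irf8 and Irf9 each time. No member fell. Over all genes 7.0% rose and 6.93% fell without Dox, and 4.86 and 2.51% with Dox. The median change of the 7 members was 2.02, compared with -0.12 over all tested genes, without Dox, and 1.87 compared with -0.07 with Dox. With scaling to the 75th percentile the median over all genes moved to -0.25 without Dox, and 801 genes rose and 1366 fell in place of 1064 and 1054. With slide as a block 377 rose and 197 fell (373 and 209 with scan date), and with Dox 584 and 284 (570 and 273) in place of 739 and 381. Wherever slide or scan date is a block at this step, the term for the third slide rested on induced progenitor arrays 1 and 2 alone. No other fitted group lay on that slide and on another, so the term without Dox was carried over from induced cells. From HE to HE2 1 member was called higher without Dox (2.39% of genes rose and 2.67% fell) and 0 with Dox (1.62 and 1.47%). From HE2 to progenitors 2 members were called higher without Dox (1.78 and 3.62%) and 1 with Dox (2.02 and 5.34%). Without overlap, members lay higher in 3, 5 and 5 cases and lower in 0, 0 and 2 at the 3 steps without Dox, where 13.3, 16.9 and 28.8% of all genes lay higher and 13.3, 20.3 and 38.8% lower. With Dox they lay higher in 1, 3 and 5 cases (9.58, 14.7 and 22.2%) and lower in 0, 1 and 0 (7.37, 20.8 and 28.6%).

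**Figure D3:**
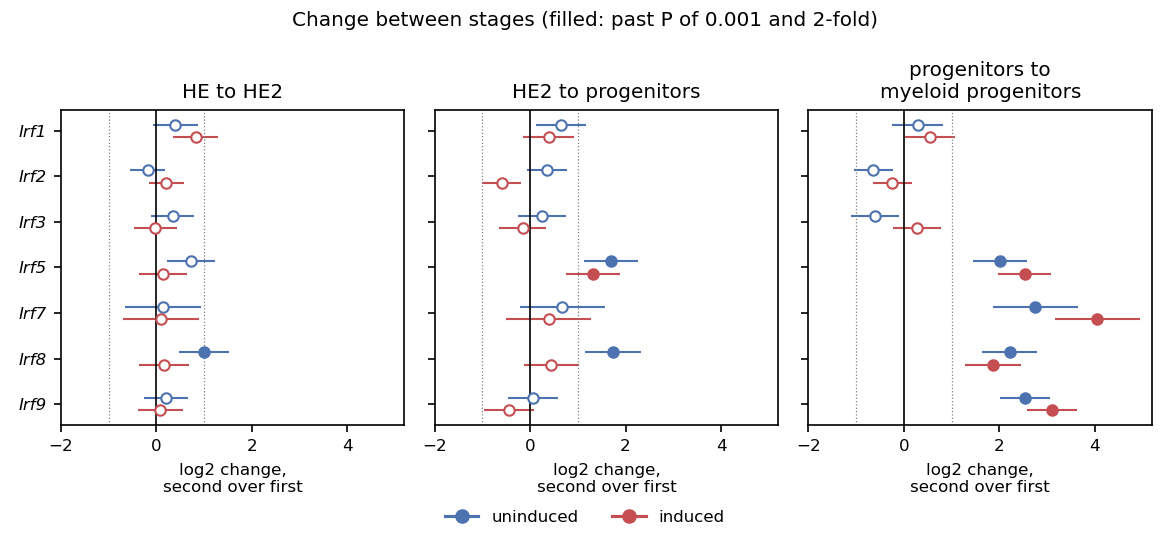
Log2 change of the 7 tested members from each stage to the next (horizontal axis, second over first stage), without Dox in blue and with Dox in red, with 95% confidence intervals from the limma fit; filled circles passed an unadjusted P of 0.001 with a 2-fold change. The last step holds the 4 members that rose, with values from 1.87 for Irf8 to 4.06 for Irf7 with Dox.

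Without Dox, no fitted progenitor array of this last step shared a slide or scan day with the myeloid progenitor arrays. Stage, slide and scan day thus cannot be told apart in that fit. With Dox, only induced progenitor array 2 shared their slide. The step was therefore also read within the third slide. There, uninduced myeloid progenitors exceeded the additional uninduced progenitor array by 2.58 for Irf5, 2.44 for Irf7, 1.91 for Irf8 and 2.39 for Irf9. Induced myeloid progenitors exceeded induced progenitor array 2 by 2.91, 4.07, 2.00 and 3.00. Each of these values stands on 1 progenitor array. Markers of other cell types moved with the step. Of the markers tested, 5 of 5 erythroid, 3 of 5 macrophage and 2 of 3 dendritic markers rose without Dox. Among them were the macrophage marker Adgre1 (2.48) and the dendritic markers Itgax (2.79) and Clec9a (3.07). Of the 7 markers of myeloid progenitors, however, 1 rose and 2 fell (median -0.84). Of the 7 of HE, 1 rose and 2 fell as well. Among the 6 of HE2 and CD41+ progenitors 2 fell and 0 rose, as did 2 and 0 of the 5 mesenchymal ones. Whether the shares of these cell types changed, and their part in the change of the IRF genes, was not tested.

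Genes that ISGF3 and IRF1 are known to activate rose with Irf7 and Irf9. Of the 24 tested, 19 rose and 0 fell from progenitors to myeloid progenitors without Dox, with a median change of 2.07. Oas1a, a sensor of double-stranded RNA, rose by 4.03, the ubiquitin-like modifier Isg15 by 3.63 and Oasl2 by 3.599. With Dox the count was 21 of 24, with a median of 2.69. It was 12 of 24 without Dox with slide or scan date as a block, a term that rested on the induced progenitor arrays alone. Within the third slide 21 of 24 were at least 2-fold higher than on the additional array. From HE2 to progenitors 8 of 24 rose without Dox (Ccl5 by 2.11, Ifit3 by 1.86 and Oas2 by 1.85), 5 without uninduced HE2 array 1 or uninduced progenitor array 1, where Ifit3 was not called (1.64 and 1.70), and from HE to HE2 3 rose (Oas1a by 1.58, Oas2 by 1.28 and Psmb10 by 1.18), Oas2 not without uninduced HE array 2 (1.12).

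The counts of the same genes called with Dox stand beside the shares over all tested genes. Of these, 4.70% were called higher and 2.39% lower in HE, and 5.17 and 2.05% in HE2. The shares were 3.03 and 0.704% in progenitors, and 5.13 and 1.18% in myeloid progenitors. In HE 2 of 24 rose, Oas1a (2.46, adjusted P = 3.8e-06) and Oas2 (1.89, well above background on 1 of 3 uninduced arrays), with a median over the list of 0.10. In HE2 none did, and the median was -0.18. In progenitors 1 fell, the chemokine Ccl5 (-1.32), with a median of -0.43. In myeloid progenitors 2 rose, Rsad2 (2.03, adjusted P = 0.011) and Ifit1 (1.93, adjusted P = 4.64e-05), both encoding antiviral proteins, with a median of 0.57. The calls of Ccl5 and Rsad2 stood near the limit and ended without any of 7 and 12 single arrays, with Ccl5 between -1.35 and -1.06 and Rsad2 between 1.58 and 2.18. The medians over all tested genes were between -0.01 and -0.04 in these comparisons.

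**Figure D4:**
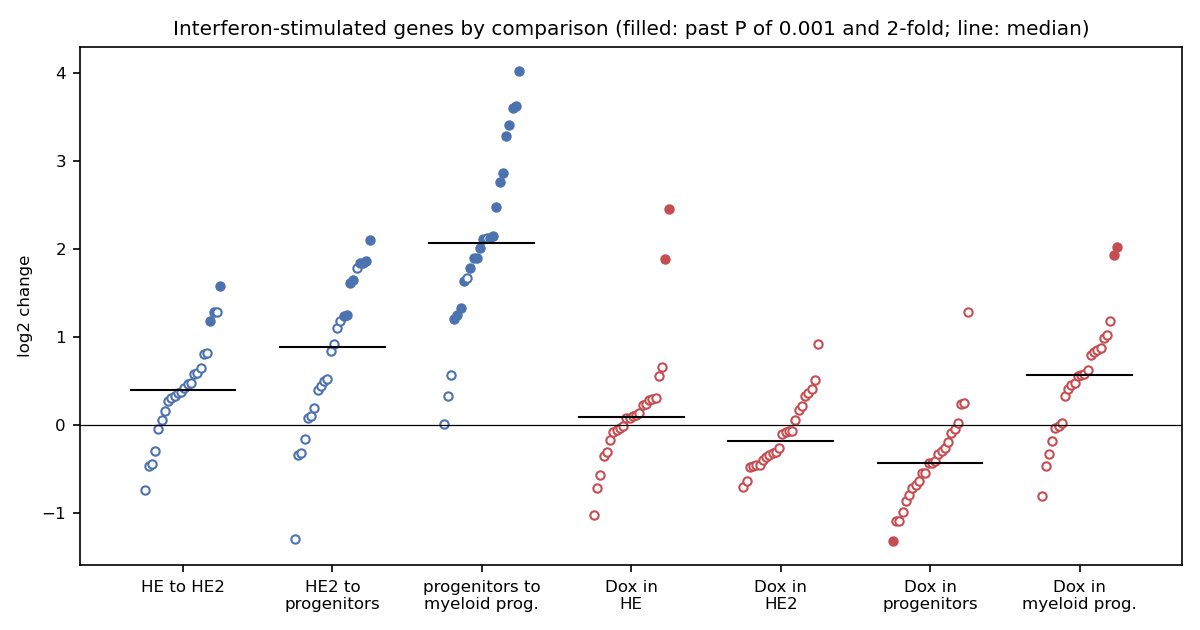
Log2 change (vertical axis) of the 24 tested interferon-stimulated genes in each comparison (horizontal axis), between stages without Dox in blue and with Dox in red, in rising order within a comparison; lines are medians and filled circles passed an unadjusted P of 0.001 with a 2-fold change. The step to myeloid progenitors has 19 filled circles, and the 4 Dox comparisons have 5 in all.

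Fewer of the genes upstream of the IRF proteins were called. Of 18 tested genes for sensors, adaptors and kinases that act on IRF3, IRF5 and IRF7, 6 rose and 1 fell to myeloid progenitors without Dox. The RNA sensors Ifih1 and Ddx58 rose by 3.52 and 2.63 and the adaptor Mavs by 1.85. With slide or scan date as a block 2 of the 18 were called, without uninduced progenitor array 2 there were 4 in place of 7, and Mavs was not called without uninduced progenitor array 1 (1.53). With Dox 1 of the 18 was called in any stage, the sensor Dhx58 in HE (1.01, adjusted P = 0.000912), at the 2-fold limit and not without uninduced HE array 1 or 3 or induced HE array 2 (0.93, 0.92 and 0.90). Among 7 tested interferon and receptor genes, the interferon gene Ifnb1 rose from HE2 to progenitors (1.099, adjusted P = 0.00702), not without uninduced HE2 array 1 (0.96) or uninduced progenitor array 1 (0.95) or 2 (1.24), and none was called at the step to myeloid progenitors. With Dox the receptor genes Ifnar1 (1.07) and Il10rb (1.11) rose in HE2, neither of them without induced HE2 array 3 (0.83 and 0.84), Ifnar1 not without uninduced array 3 (0.96) and Il10rb not without uninduced array 1 (0.91). Ifnlr1 rose in myeloid progenitors, there by at least 2.72-fold because it was not well above background without Dox. With Dox it was well above background on 2 of 3 arrays, at a mean of 6.16, so this bound rests on a low signal.

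Of 12 genes of JAK-STAT signalling and its feedback, 2 rose and 3 fell to myeloid progenitors without Dox. Usp18, an inhibitor of the interferon receptor, rose by 1.87, while the inhibitors Socs3 (-2.31) and Socs1 (-1.93) fell. Without uninduced progenitor array 1 neither was called (-1.40 and -1.51) and the count was 2 in place of 5. The call of Socs3 ended without any of 13 single arrays, with values from -2.435 to -1.40. Without any one of the 3 uninduced myeloid progenitor arrays 3 genes were called, and with slide or scan date as a block 1 was. In HE2 Usp18 fell with Dox (-1.97, adjusted P = 0.000168), as did the phosphatase gene Ptpn6 (-1.38), not called without uninduced HE2 array 3 (-1.09) or induced array 2 (-1.37) or 3 (-1.115). In myeloid progenitors Socs1 rose by 1.44, a call that ended without any of 14 single arrays. Usp18 was the gene of this list that rose at all 3 steps without Dox, by 2.43, 2.34 and 1.87.

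Some partners of the IRF proteins fell with Dox. Of 13 tested, 1 fell in HE and 4 fell in HE2, while progenitors and myeloid progenitors had 1 each, and 1 rose, Irf2bpl in myeloid progenitors (1.35). Without uninduced HE2 array 2 or induced HE2 array 3, 2 were called in HE2, and in progenitors 0 were called without uninduced array 1 or induced array 2 and 3 without induced array 1. Spi1 fell in HE2 (-2.73, adjusted P = 5.42e-05) and in progenitors (-2.23, adjusted P = 0.00505, not without uninduced progenitor array 1, at -1.99, or induced array 2, at -1.76), and its change was -0.30 in HE, where it was near background. Batf3, a partner of IRF8 in dendritic cells, fell in HE (-2.94, adjusted P = 0.00012) and in HE2 (-1.78, a call that ended without any of 11 single arrays), and Ikzf1, encoding Ikaros, fell in HE2 (-1.58) and in myeloid progenitors (-1.52). Spi1 and Batf3 are also in lists described below. Without Dox Spi1 rose to HE2 (3.29) and to progenitors (2.05) and fell to myeloid progenitors (-1.81), and Irf8 rose at that last step. The rise to progenitors was not called without uninduced progenitor array 1 (1.82), and the fall not without uninduced progenitor array 1 (-1.58) or 2 (-2.05) or uninduced myeloid progenitor array 2 (-1.70) or 3 (-1.78), each of which left 3 of the 13 called in place of 5. Ikzf1 (3.602) and Bcl6 (2.46), a repressor, rose from HE to HE2, and Jun (-2.18) and Batf (-1.63) fell to myeloid progenitors. With slide or scan date as a block none of the 13 was called at that step.

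Of 9 tested genes known as targets of IRF8, alone or with PU.1, 5 rose to myeloid progenitors and none fell without Dox. The protease gene Ctss rose by 6.31 from a level at which only 1 of 2 progenitor arrays was well above background, the pore protein gene Mpeg1 by 2.96 and Csf1r, the receptor of M-CSF, by 2.17. With slide or scan date as a block 3 of the 9 were called. In HE, where Irf8 rose with Dox, the list held 1 gene that rose, Klf4 (1.64, adjusted P = 3.37e-05), and 1 that fell, Batf3. Klf4, a TF of monocytes and of endothelium, also rose in HE2 (2.57) and progenitors (1.88). Csf1r fell in HE2 (-1.76, adjusted P = 0.000981). In myeloid progenitors none of the 9 was called with Dox, and 1 was without uninduced array 2 or 3 or induced array 3. In HE the dendritic marker Clec9a rose as well (1.80, adjusted P = 0.000262), and 3 of 6 dendritic markers were above background on no induced HE array.

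Among 8 TFs known to act on Irf8 or to set its stage, Gfi1, encoding a repressor, rose with Dox in myeloid progenitors by 3.22 (adjusted P = 2.36e-05), together with Gata2 (1.26, a call that ended without any of 5 single arrays), while Spi1 was -1.39 there (adjusted P = 0.0151, not called). In HE none of the 8 was called, and 1 was without induced array 2 or 3. Gata1 rose in HE2 (2.07). Without Dox Spi1 (3.29), Myb (3.07) and Gata1 (2.84) rose from HE to HE2, and Gata1 (2.30) and Spi1 (2.05) rose and Gfi1 fell (-1.93) from HE2 to progenitors. Of the 4 called at that step 2 were without uninduced HE2 array 2 and 1 without uninduced progenitor array 1 or 2. Gata1 (2.47) rose and Runx1 (-1.71) fell to myeloid progenitors, where 1 of the 3 was called without uninduced myeloid progenitor array 2 or 3 or either uninduced progenitor array, and none with slide as a block.

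The genes whose levels over the 22 arrays were most like those of each member are given as a description, since arrays of a group share their stage. They were Samhd1, Ttc7 and Rffl for Irf1 (Pearson r 0.943, 0.938 and 0.935), and Slc16a9, Ago4 and Fyn for Irf2 (0.925, 0.913 and 0.912). Irf3 had lower values, with Lin37, Rpp38 and Zfp397 at 0.864, 0.846 and 0.841. Irf5 was most like Ccr2, Gm14548 and Psmb9 (0.991, 0.989 and 0.988), and Irf8 most like Bcl2a1c, Npy and Myo1g (0.962, 0.953 and 0.953). Irf7 was most like Plin2, Oasl2 and Ddx58 (0.979, 0.976 and 0.975), and Irf9 most like Xaf1, Trib3 and Stat2 (0.983, 0.98 and 0.978). The lists of Irf5, Irf7 and Irf9 each held at least 1 gene of the interferon pathway lists above, Psmb9, Oasl2 with Ddx58, and Stat2.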

How the data were processed

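RNA levels were read on 23 1-colour Agilent mouse arrays. The deposited scanner files hold the intensity of every spot and of its surroundings from Feature Extraction (10.7.3.1 in the file headers, 10.7.1.1 in the submitters' processing notes), without normalization between arrays, and log2 values were deposited by the authors as well, corrected for background and quantile normalized, which were used as an alternative. Of the columns of values, 0 were left out.

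Median intensities were corrected with normexp (offset 16). The 3671 control spots and outlier spots were left out, and the arrays were quantile normalized. Of 55681 probes, 26582 matched a symbol through a RefSeq list of GRCm38.p6 (names only, since the array was annotated on another build), for 20145 genes. The probe with the highest mean stood for a gene, and 15202 genes with a log2 value of at least 6.5 on 1 array were tested. The fit gave a mean to each of 8 groups over 22 arrays, with 14 residual degrees of freedom, in limma 3.58.1 in R 4.3.3 with Benjamini-Hochberg adjustment. Dox responses of stages were compared by interaction terms. Induced myeloid progenitor array 3, which its title and its source name describe differently (biological or technical), was used as replicate 3. Where separate cultures are not stated, P values measure only the spread between arrays. The number of arrays limits the precision.

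The genes named are all members, Runx1t1, per list up to 3 genes with the largest change among those called in a Dox comparison or an uninduced step between stages, the 3 genes most correlated with each member, and markers of cell types. Adgre1, Itgax, Clec9a and Hbb-bt, and single genes called in a count, were named after their values were seen. A result for a gene outside the members is not reported here. The members and lists were chosen with earlier results of these data known. The fit was tested on simulated data. Same-numbered uninduced HE and HE2 arrays deviated together from their group means (r from 0.394 to 0.797 across genes), while the other comparisons had fewer than 3 pairs or a pair with r under 0.1. The alternatives are those of the closing section.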

Additional observations from a re-analysis of the deposited data

Results flagged for a closer look

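The response of Irf8 to Dox differed between the stages, with a log2 change in myeloid progenitors lower by 2.48 than that in HE (interaction -2.477, SE 0.349, adjusted P = 0.000273 by limma). The change was 1.52 in HE, where all 3 induced arrays were above all 3 uninduced ones, and -0.96 in myeloid progenitors, where all 3 were below. The value lay between -2.70 and -2.26 and stayed past the threshold under all 36 alternatives. No such difference was called for the other 6 tested members. HE and myeloid progenitors lay on different slides and came from different cultures. Their Dox treatment differed too, given on day 1 of blast culture for HE and for 12 h in myeloid progenitors. These differences cannot be told apart from the stage. With Dox in myeloid progenitors, 5 of the 7 markers of HE rose. Of 3 tested dendritic markers Itgax fell there (-1.32), with a median of 0.07 over the 3. In HE 2 of 5 mesenchymal markers fell and 1 rose, and 1 of 5 erythroid markers, Hbb-bt, rose (2.37). The dendritic marker Clec9a rose in HE as well, and 1 of 6 markers of HE2 and CD41+ progenitors fell. In both stages 1 of 5 macrophage and 1 of 4 mast cell markers rose. Whether the shares of these cell types changed, and their part in the difference, was not tested.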

How the results depend on the processing

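Of 14 comparisons, 5 kept their number of called members within 1.5 times under every alternative, and no called change of a member turned its sign. Changes near 0 that were not called did turn, among them Irf2 with Dox in progenitors (-0.14 to 0.38), Irf8 from HE to HE2 with Dox (-0.04 to 0.31) and Irf1 (-0.02 to 1.14) and Irf3 (-0.99 to 0.03) from progenitors to myeloid progenitors without Dox. With Dox in HE, 1 member was called in place of 2 when all probes of a gene were averaged. With Dox in HE2, 2 were called in place of 1 after 75th percentile scaling and with slide as a block, and 0 with only the groups compared. With Dox in progenitors, in place of 2, 1 was called after 75th percentile scaling, with all probes averaged and with the additional array as replicate 3, and 0 with only the groups compared, with slide, scan date or the replicate number as a block, and without arrays 2 of both groups, a setting added after the data were seen. From HE to HE2 without Dox, in place of 1, 0 were called with an offset of 50, without background correction, on the deposited log2 values, with only the groups compared, with slide or the replicate number as a block, and without progenitor arrays 2. From HE2 to progenitors, with only the groups compared, 1 was called in place of 2 without Dox and 0 in place of 1 with Dox. The replicate block, with the pairing by number borne out only for uninduced HE and HE2, changed no other member count beyond 1.5 times.

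With single arrays left out, the counts ran from 0 to 1 with Dox in HE2 (0 without uninduced HE2 array 1), from 0 to 2 with Dox in progenitors (0 without uninduced progenitor array 1 or 2 or induced array 2), from 0 to 2 with Dox in myeloid progenitors (2, Irf1 and Irf8, without uninduced array 3), and from 0 to 1 from HE to HE2 without Dox. They ran from 0 to 1 from HE to HE2 with Dox (1, Irf1 at 1.04, without induced HE2 array 1), from 0 to 1 from HE2 to progenitors with Dox (0 without induced progenitor array 1), and from 0 to 1 for the Dox response of progenitors against HE2 (Irf8 at -1.51 without uninduced HE2 array 3, Irf2 at -1.18 without induced progenitor array 1). The causes were not tested. Low signal limits Irf4 in every stage and Irf7 before the myeloid progenitors.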
